A study of Mus musculus with 24 samples.

Results

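The nuclear genes of oxidative phosphorylation, the pathway by which mitochondria turn electrons from food into ATP, were examined in the liver and white fat of mice carrying human PER1 with the S714G change or human PER1 with S714. Members were taken by name: genes on the array that start with Nduf, Uqcr or Atp5, the Cox4 to Cox8 subunits with a letter a, b or c after the digit, and Sdha to Sdhd, without Cox8b and Cox7a1. This gave 85 genes (129 probes) among 34844 gene names (55681 probes) on the array. By complex, 42 members belong to complex I by name, 4 to complex II, 8 to complex III, 14 to complex IV and 17 to ATP synthase (complex V). The rule does not take Cox4i1 and Cyc1, and it takes 6 factors that are not respiratory subunits: the complex I assembly factors Ndufaf1 to Ndufaf4, and Atp5s and Atp5sl, now named Dmac2l and Dmac2.

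The mice were male, C57BL/6 and 2 months old, and had been kept in light-dark cycles for 10 days. Total RNA of each tissue was hybridised to 1-colour Agilent arrays in 8 groups of 3 arrays: S714G liver at ZT1, S714 liver at ZT1, S714G liver at ZT13, S714 liver at ZT13, and the same 4 groups of white adipose tissue (ZT is zeitgeber time, in hours after lights on). Both genotypes carry human PER1, a clock protein, so the comparison is between its S714G and S714 forms and not with mice that lack it. The promoter of the human gene and the state of the mouse's own Per1 are not given in the sources used here. The labels call the 3 repeats independent without naming animals, so p-values measure the spread between these samples.

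Complexes I to IV pass electrons from NADH and succinate to oxygen and, except complex II, pump protons across the inner mitochondrial membrane, and complex V uses the return of the protons to make ATP. Complex I takes electrons from NADH, complex II (succinate dehydrogenase) also belongs to the citric acid cycle, complex III passes electrons to cytochrome c, and complex IV hands them to oxygen. A few subunits exist in alternative forms that are restricted to certain tissues, such as the muscle form Cox6a2 and the testis forms Cox6b2, Cox7b2 and Cox8c. Liver runs this pathway heavily, while white adipocytes hold fewer mitochondria.

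The probes of 4 members on which the results turn are shown first, because each value is the signal of that single sequence (build mm9, 60 bases). Ndufa4l2 (chr10:126954149-126954208, plus strand) and Cox6b2 (chr7:4703488-4703547, minus strand) were the members lower in liver than in adipose tissue. Atp5sl (chr7:26410510-26410569, plus strand) and Ndufaf4 were the members furthest below S714 in S714G liver at ZT13. Ndufaf4 has a first probe at chr4:24829194-24829253 and a second at chr4:24830284-24830343, both on the plus strand.
Ndufa4l2 probe: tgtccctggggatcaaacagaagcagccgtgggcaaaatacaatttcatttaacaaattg
Cox6b2 probe: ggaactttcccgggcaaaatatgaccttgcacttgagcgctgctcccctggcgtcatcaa
Atp5sl probe: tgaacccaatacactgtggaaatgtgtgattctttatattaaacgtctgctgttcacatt
Ndufaf4 first probe: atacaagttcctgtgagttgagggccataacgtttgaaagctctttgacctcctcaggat
Ndufaf4 second probe: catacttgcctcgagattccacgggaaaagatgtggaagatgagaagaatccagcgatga

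Promoters from RefSeq (GRCm38.p6, 250 bases before to 50 after a start site) were available for 72 of the 85 members, 78 promoters in all. On these, 4 motifs were searched on both strands: the NRF1 motif (GCGC, any base, then TGCGC; NRF1 is a regulator of respiratory chain genes), the ETS motif CCGGAAG (bound by GABP), the E-box CACGTG (bound by CLOCK and BMAL1) and the D-box TTATGNAA (bound by DBP). The NRF1 motif stood in 19 of the 78 member promoters (24.4%), against 4.60% of all 32851 promoters. The ETS motif stood in 17 (21.8%), against 8.86%. The E-box stood in 9 (11.5%), against 7.15%, and the D-box in 2 (2.56%), against 3.38%. By gene the motifs stood in 18, 17, 7 and 2 members in the same order. Dmac2 and Ndufa7 each gave 2 of the 9 E-box promoters, through overlapping windows around the same site. These shares describe letters in a window and are not binding sites. Shown are Dmac2 (chr7:25619164-25619463, plus strand), the current name of Atp5sl, with its E-box in capitals, Ndufaf4 (chr4:24897833-24898132, plus strand) with its NRF1 motif in capitals, and Atp5c1 (chr2:10080383-10080682, minus strand), the gamma subunit of ATP synthase and 1 of the members furthest above adipose tissue in liver, with its NRF1 motif in capitals.
Dmac2 promoter: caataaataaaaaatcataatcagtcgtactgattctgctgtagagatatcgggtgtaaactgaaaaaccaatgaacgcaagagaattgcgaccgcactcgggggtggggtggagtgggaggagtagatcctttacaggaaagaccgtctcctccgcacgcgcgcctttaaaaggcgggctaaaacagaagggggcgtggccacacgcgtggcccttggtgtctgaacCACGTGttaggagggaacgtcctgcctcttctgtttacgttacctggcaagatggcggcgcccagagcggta
Ndufaf4 promoter: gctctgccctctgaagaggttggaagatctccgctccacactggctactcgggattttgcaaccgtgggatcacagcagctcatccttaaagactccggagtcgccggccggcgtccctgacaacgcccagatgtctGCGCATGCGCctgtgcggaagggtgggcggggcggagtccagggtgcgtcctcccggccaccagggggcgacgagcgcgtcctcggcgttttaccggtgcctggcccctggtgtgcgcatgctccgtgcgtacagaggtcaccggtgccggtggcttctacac
Atp5c1 promoter: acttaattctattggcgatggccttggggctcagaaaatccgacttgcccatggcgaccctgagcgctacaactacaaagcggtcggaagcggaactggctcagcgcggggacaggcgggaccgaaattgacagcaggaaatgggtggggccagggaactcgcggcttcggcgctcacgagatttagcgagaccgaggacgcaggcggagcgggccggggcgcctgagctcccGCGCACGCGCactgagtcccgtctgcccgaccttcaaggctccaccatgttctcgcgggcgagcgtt

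Values are log2 signals relative to each array's own 75th percentile, so a difference of 1 is 2-fold. A gene is represented by its brightest probe, and a gene was tested only if the scanner software rated that probe well above background in a whole group of 3 arrays. This held for 83 of the 85 members in either tissue. Cox7b2 and Cox8c reached that rating on none of the 24 arrays and have no result, Cox6a2 reached it on 22, and the other 82 members did on all 24. No spot was saturated. The tissue labels were checked against markers: the summed signal of 12 hepatocyte genes was 1266 to 2439 in liver arrays and 50.6 to 659 in adipose arrays, and that of 10 adipocyte genes 11.8 to 19.8 in liver and 504 to 740 in adipose arrays. The highest adipose sum of hepatocyte genes was on an S714 array at ZT1. Ucp1, which defines brown fat cells, was well above background on 1 of the 12 adipose arrays and on no liver array. It is 1 gene of a longer list of brown adipocyte markers, and the content of brown fat cells was not tested. The arrays lay on 3 slides of 8, and the slides were not balanced over the groups, which bears on the ZT1 and time comparisons below.

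Liver and adipose tissue were compared as the mean over the 4 genotype and time groups. Of the 83 members, 79 were higher in liver and 2 lower (81 called, against 75.3% of the 24314 genes tested, with 42.1% higher and 33.2% lower), at an adjusted p under 0.05 from limma with Benjamini-Hochberg adjustment over all genes. The median difference of the members was 0.72, against 0.15 over all genes. After quantile normalization, which gives every array the same distribution of signal, 25 members were higher and 12 lower (70.4% of all genes called, 32.9% higher and 37.5% lower), with a median of 0.09 against -0.04 over all genes. The sign of the difference changed with this scaling for 31 members and was kept for 52, and of the members called on both scales 27 had the same direction and 9 the opposite one. On the 75th percentile scale the brightest genes as a whole lay higher in liver: the 90th percentile of signal was 4.04 in liver and 3.46 in adipose tissue, and the 99th percentile 6.69 in liver and 5.78 in adipose tissue. The members' median rank among all genes of the tissue, by signal, was the 94.0th percentile in liver and the 93.6th in adipose tissue, with 49 of 83 ranking higher in liver. Within each genotype and time the higher and lower counts were 47 and 2 in S714G at ZT1 (53.5% of genes called, 25.5% higher and 28% lower), 63 and 2 in S714 at ZT1 (48.9%, 27.4% and 21.4%), 63 and 2 in S714G at ZT13 (56.4%, 31.3% and 25.2%) and 69 and 2 in S714 at ZT13 (56.4%, 32.5% and 23.9%). In bulk tissue, fewer cells of a type and less RNA per cell cannot be told apart.

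**Figure D1:**
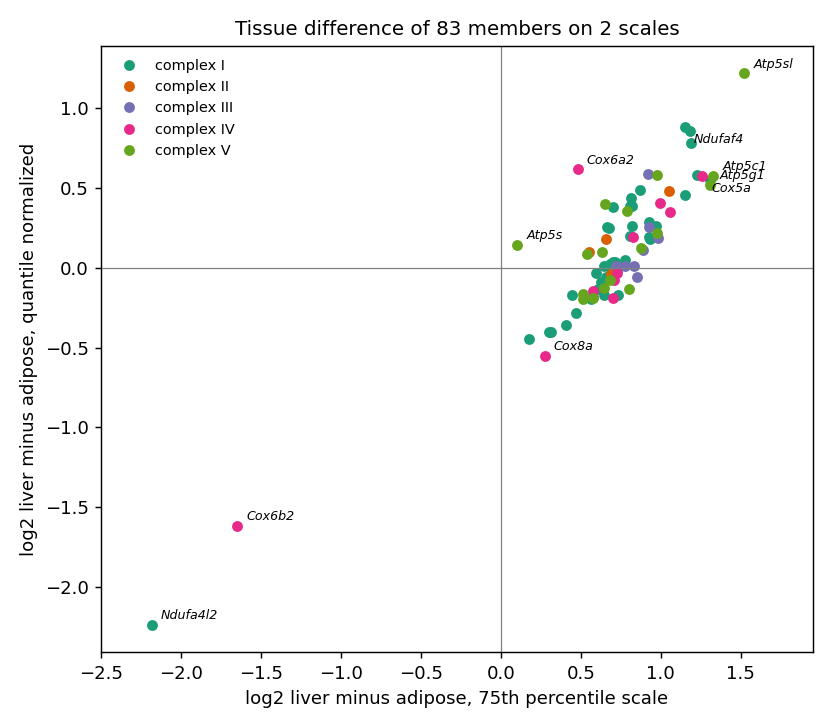
Tissue difference of the 83 tested members on 2 scales: log2 liver minus adipose relative to the array's 75th percentile (horizontal) and after quantile normalization (vertical), colours marking the complex. Points left of 0 on the horizontal axis are Ndufa4l2 and Cox6b2 alone, while the vertical values of most other members lie around 0.

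Ndufa4l2, a relative of the Ndufa4 subunit that is known for its induction in low oxygen, was lower in liver on both scales. Its level in liver was -0.97, -1.17 and -1.03 in S714G at ZT1, 0.22, -0.45 and -0.30 in S714 at ZT1, -1.33, -1.44 and -1.18 in S714G at ZT13, and -0.86, -0.99 and -1.14 in S714 at ZT13. In adipose tissue it was 2.48, 1.67 and 0.95 in S714G at ZT1, 1.54, 1.48 and 2.52 in S714 at ZT1, 0.96, 0.83 and 0.84 in S714G at ZT13, and 0.61, 0.88 and 0.81 in S714 at ZT13. All 12 liver arrays lay below all 12 adipose arrays. The difference was -2.18 (SE 0.15, adjusted p = 5.8e-11 by limma), and -2.23 after quantile normalization. Within slides, where tissues could be compared on the same glass, it ran from -2.19 (slide 3) to -1.63 (slide 2).

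Cox6b2, an alternative form of the complex IV subunit Cox6b1, was the other member lower in liver. Its liver level was -2.59, -2.80 and -2.45 in S714G at ZT1, -2.40, -2.48 and -2.49 in S714 at ZT1, -2.80, -2.36 and -2.44 in S714G at ZT13, and -2.52, -2.42 and -2.60 in S714 at ZT13. In adipose tissue it was -0.06, -0.99 and -0.76 in S714G at ZT1, -0.74, -0.71 and -0.96 in S714 at ZT1, -1.16, -1.11 and -0.85 in S714G at ZT13, and -1.21, -1.15 and -0.82 in S714 at ZT13. No liver array reached the lowest adipose array. The difference was -1.65 (SE 0.10, adjusted p = 1.1e-11 by limma), and -1.61 after quantile normalization, and within slides it ran from -1.85 to -1.46. Their common partners did not share this direction. Ndufa4, whose protein is found with complex IV although it is named for complex I, was 1.16 higher in liver (0.46 after quantile normalization) and Cox6b1 was 0.72 higher (-0.03 and adjusted p = 0.78 after quantile normalization).

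Markers of stromal cells moved the same way as Ndufa4l2 and Cox6b2. Of 7 endothelial markers, 7 were lower in liver, with a summed signal of 8.40 to 11.6 in liver arrays and 26.7 to 42.9 in adipose arrays. Of 7 fibroblast and mesothelial markers, 7 were lower in liver, with sums of 46.9 to 87.4 in liver arrays and 144 to 291 in adipose arrays. Some other lists also ran lower in liver after quantile normalization, where 32.9% of all genes were higher and 37.5% lower. Lower were 10 of 10 adipocyte, 6 of 10 macrophage, 4 of 5 skeletal muscle and 3 of 4 erythroid markers, with 0, 2, 1 and 1 higher. Of 12 hepatocyte markers 11 were higher and 1 lower, and of 5 tested brown adipocyte markers 3 were higher and 2 lower. Of 7 tested T and B cell markers 3 were higher and 0 lower. Of 3 tested epididymis and testis markers 2 were higher and 0 lower. The part of any of these cell types in the 2 results was not tested. Cox4i2, the alternative form of complex IV subunit 4, which the rule does not take, was well above background on 4 of 12 liver arrays and on all 12 adipose arrays, with liver levels of -6.01 to -3.24 and adipose levels of -2.04 to -0.38.

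**Figure D2:**
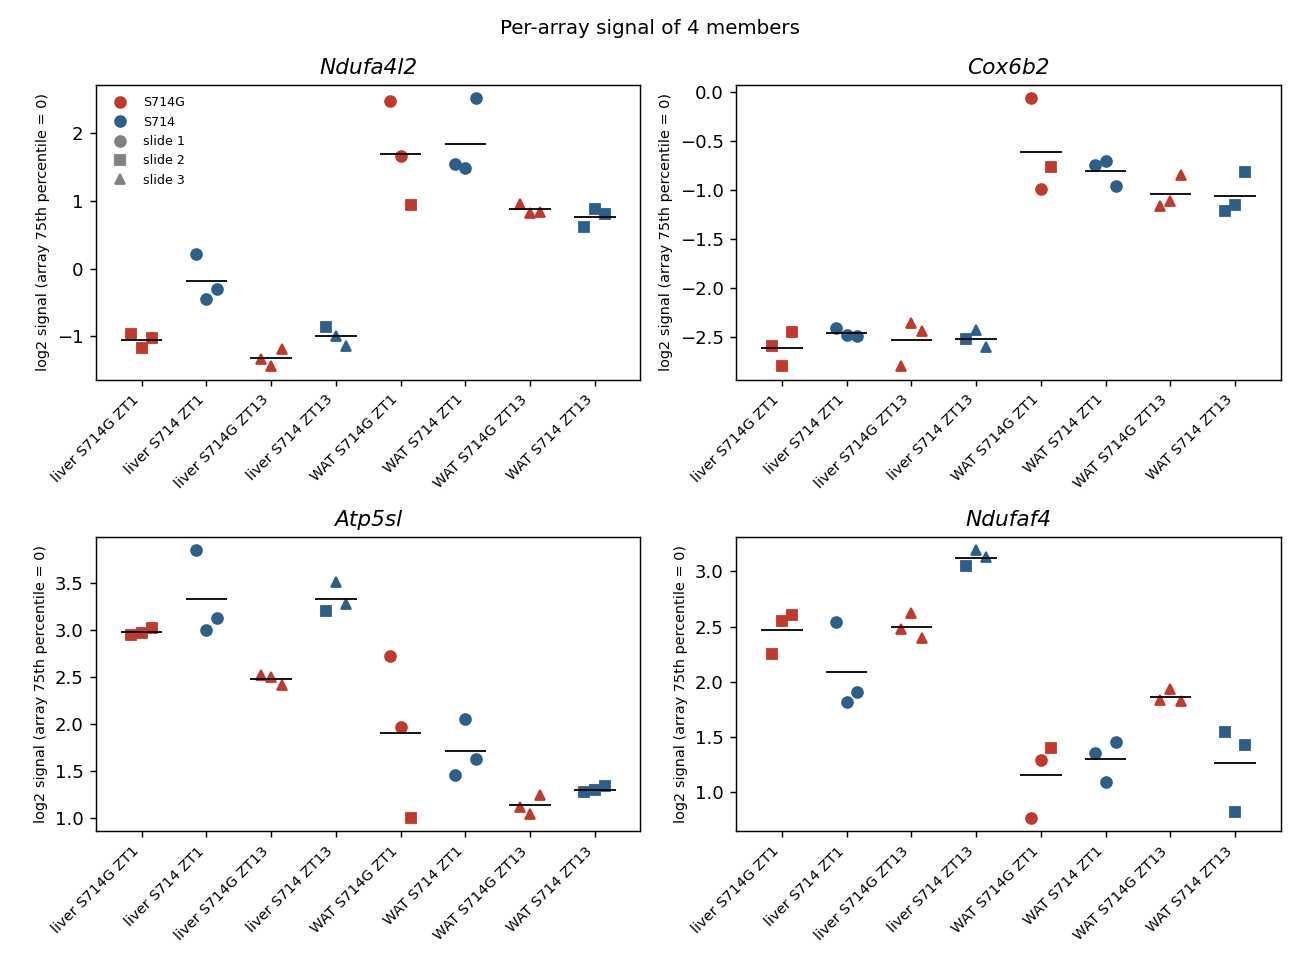
Log2 signal relative to the array's 75th percentile for Ndufa4l2, Cox6b2, Atp5sl and Ndufaf4 on each of the 24 arrays, with colours for genotype, marker shapes for slide and bars for group means (WAT is white adipose tissue). Ndufa4l2 and Cox6b2 lie lower in all liver arrays than in all adipose arrays, and Atp5sl and Ndufaf4 lie lower in the 3 S714G than in the 3 S714 liver arrays at ZT13.

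Among the members higher in liver, Atp5sl (1.52), a factor needed for assembly of complex I, differed most. It was followed by Atp5c1 (1.33), Atp5g1 (1.31), 1 of 3 genes for the c ring of ATP synthase, Ndufa6 (1.31), Cox5a (1.26) and the iron-sulphur subunit Ndufs8 (1.23). These 6 were also higher after quantile normalization, at 0.52 to 1.22. The difference was 1.15 for the assembly factor Ndufaf4 and 1.18 for Ndufab1, the mitochondrial acyl carrier protein, and 0.88 and 0.85 after quantile normalization. In all, 24 of 83 members lay above every adipose array on every liver array (11.7% of all genes tested did), Uqcrc1, Uqcrfs1 and Uqcrh of complex III among them. The 4 subunits of complex II were higher by 0.65 (Sdha), 0.69 (Sdhb), 0.55 (Sdhc) and 1.05 (Sdhd). By complex, the median difference was 0.71 for complex I, 0.67 for complex II, 0.87 for complex III, 0.71 for complex IV and 0.68 for complex V, against 0.03, 0.14, 0.06, -0.05 and 0.13 in the same order after quantile normalization.

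Alternative forms of a subunit are given side by side, without a test of the difference between forms. Atp5g1 was 1.31 higher in liver, while Atp5g2 was 0.58 higher and Atp5g3 0.65 higher, and after quantile normalization the 3 stood at 0.52, -0.19 and 0.40 (adjusted p = 6.9e-06, 0.025 and 0.10). Cox8a, the ubiquitous form of its complex IV subunit, was 0.28 higher in liver on the 75th percentile scale and 0.55 lower after quantile normalization, with adjusted p = 0.0049 and 2.3e-06. Cox7a2 was 0.58 higher and Cox7a2l, which takes part in supercomplexes, 0.57 higher. The muscle form Cox6a2 lay close to background, at -4.85 to -0.95 in liver and -5.14 to -2.44 in adipose tissue, and its difference of 0.48 had an adjusted p of 0.043. Summed skeletal muscle markers were at 0.242 to 0.978 in liver arrays and 3.61 to 12.6 in adipose arrays, and their part in this result was not tested. Members not past the threshold in the tissue comparison were Atp5s (0.10) and Ndufb3 (0.18).

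The rest of the pathway was read from named gene lists. Over all genes, 42.1% were higher and 33.2% lower in liver, and 32.9% and 37.5% after quantile normalization. Counts near these shares do not set a list apart from other genes. Of the 13 subunits encoded by mitochondrial DNA, 13 were higher in liver (median 0.89), but only 1 was higher and 1 lower after quantile normalization. Among 23 tested assembly and import factors outside the rule, 17 were higher and 1 lower, with the copper chaperone Sco2 at 2.54, Lrpprc, which keeps mitochondrial mRNAs stable, at 1.47 and Atpaf2 at -0.69, and after quantile normalization 12 were higher and 4 lower. In the citric acid cycle 8 of 13 were higher and 3 lower, among them Suclg2 at 2.21 and citrate synthase (Cs) at -1.20, and after quantile normalization 3 were higher and 6 lower. Among 15 regulators 9 were higher and 4 lower, with Ppara at 3.28, Esrrg at 2.75, Tfam, which packs mitochondrial DNA, at 1.33 and the corepressor Nrip1 at -2.78, and 8 and 5 after quantile normalization.

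Whether the S714G form changed these genes was asked at each time and in each tissue. Liver at ZT13 has 5 of its 6 arrays on slide 3, and adipose tissue at ZT1 has 5 of its 6 on slide 1, while the genotypes of liver at ZT1 and of adipose tissue at ZT13 share no slide. In liver at ZT13, 1 of the 83 members passed, against 3.04% of the 21822 genes tested (1.52% lower). The members' median difference, S714G minus S714, was -0.08, against 0.02 over all genes. In the same livers the clock genes moved far, Arntl by 3.91 and Dbp by -3.59, so the genotypes were distinct. The median summed signal of 5 clock genes in liver was 47.8 in S714G and 7.79 in S714 at ZT1. At ZT13 it was 10.5 in S714G and 57.5 in S714, the reverse order. In a genotype comparison at 1 time, a difference in level and a shift in daily timing cannot be told apart. Of the 83 members 74 differed by less than 0.25, and for 77 the 95% interval of the difference lay between -1 and 1, that is within 2-fold either way.

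For 1 subunit of each complex the values at ZT13 were as follows. Ndufs1, which carries iron-sulphur clusters of complex I, was at 4.70, 4.84 and 4.55 in S714G livers and 4.87, 5.08 and 5.01 in S714 livers. Its groups did not overlap, and its difference of -0.29 (interval -0.66 to 0.08) did not pass (adjusted p = 0.49). Sdha, the flavoprotein of complex II, was at 3.52, 3.76 and 3.53 in S714G livers and 3.68, 3.66 and 3.65 in S714 livers, with overlapping groups and a difference of -0.06 (interval -0.36 to 0.25). Uqcrc1, a large structural subunit of complex III, was at 5.87, 5.72 and 5.55 in S714G livers and 5.77, 5.98 and 5.89 in S714 livers, a difference of -0.16 (interval -0.51 to 0.18). For Cox5a of complex IV the values were 5.03, 4.98 and 4.70 in S714G livers and 4.87, 5.24 and 5.04 in S714 livers, a difference of -0.15 (interval -0.47 to 0.18). Atp5b, the catalytic beta subunit of ATP synthase, was at 5.88, 5.81 and 5.62 in S714G livers and 5.66, 6.03 and 5.61 in S714 livers, a difference of 0.00 (interval -0.71 to 0.72). Among other subunits of the 5 complexes, Ndufv1 was at -0.16, Sdhb at -0.11, Sdhc at -0.09, Sdhd at -0.19, Uqcrfs1 at 0.07, Uqcrb at 0.10, Cox5b at -0.09, Cox6c at 0.10, Atp5a1 at 0.28 and Atp5o at 0.06, and none passed.

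Atp5sl was the member that passed. Its level was 2.52, 2.51 and 2.42 in S714G livers at ZT13, against 3.21, 3.51 and 3.28 in S714 livers. The groups did not overlap, and the difference was -0.86 (SE 0.20, adjusted p = 0.045 by limma, interval -1.30 to -0.41). Within slide 3 alone it was -0.92 (adjusted p = 0.027 by limma, 3 S714G and 2 S714 arrays). Over 17 alternative settings the difference ran from -0.94 to -0.74 and the adjusted p from 0.016 to 0.22, passing in 5, and it did not pass when any 1 array was left out.

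Ndufaf4, the other assembly factor low in S714G livers at ZT13, did not pass. It was at 2.48, 2.62 and 2.40 in S714G livers, against 3.05, 3.19 and 3.14 in S714 livers. The groups again did not overlap, and the difference was -0.63 (SE 0.19, adjusted p = 0.12 by limma), and -0.67 within slide 3 (adjusted p = 0.049). Its second probe gave -0.38. In adipose tissue at ZT13 the same gene was at 1.83, 1.94 and 1.83 in S714G, against 1.55, 0.82 and 1.43 in S714, a difference of 0.60 with no overlap (adjusted p = 0.98), with S714G on slide 3 and S714 on slide 2, so that genotype and slide cannot be told apart. The difference between the tissues' genotype effects was -1.23 (adjusted p = 0.15). Ndufaf1, Ndufaf2 and Ndufaf3 differed by -0.04, -0.02 and -0.21 in liver at ZT13.

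Among the regulators the 2 coactivators of the PGC-1 family were lower in S714G livers at ZT13, as 2 of the 15 tested. Over all genes, 3.04% were called there and 1.52% were lower. Ppargc1a (PGC-1 alpha), which drives respiratory chain genes in fasted liver and other tissues, was at 0.83, 0.41 and 0.46 in S714G livers, against 1.17, 2.02 and 1.57 in S714 livers. The groups did not overlap, and the difference was -1.02 (SE 0.23, adjusted p = 0.034 by limma) and -1.23 within slide 3 (adjusted p = 0.038). Ppargc1b (PGC-1 beta) was at -1.49, -1.27 and -1.67 in S714G livers, against -0.44, -0.32 and -0.61 in S714 livers. Its difference was -1.02 (SE 0.20, adjusted p = 0.021 by limma), and -1.02 within slide 3 (adjusted p = 0.041). Of 17 alternative settings each, Ppargc1a passed in 9 and Ppargc1b in 10, and the adjusted p ran up to 0.13 and 0.099. In liver at ZT1 both lay higher in S714G, Ppargc1a by 0.56 (interval 0.07 to 1.05) and Ppargc1b by 1.19 (0.74 to 1.63). There genotype and slide cannot be told apart. In adipose tissue at ZT13 Ppargc1b was at 0.24, -0.10 and -0.15 in S714G, against -0.56, -0.73 and -0.77 in S714, and its genotype effect in liver minus that in adipose tissue was -1.71 (SE 0.34, adjusted p = 0.046). In liver at ZT13 the lists of 13 mitochondrially encoded subunits, 11 tested chain genes outside the rule, 23 assembly factors and 13 citric acid cycle genes held 0 genes past the threshold. With 3.04% of all genes called, a count of 0 does not set lists of this size apart from other genes.

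**Figure D3:**
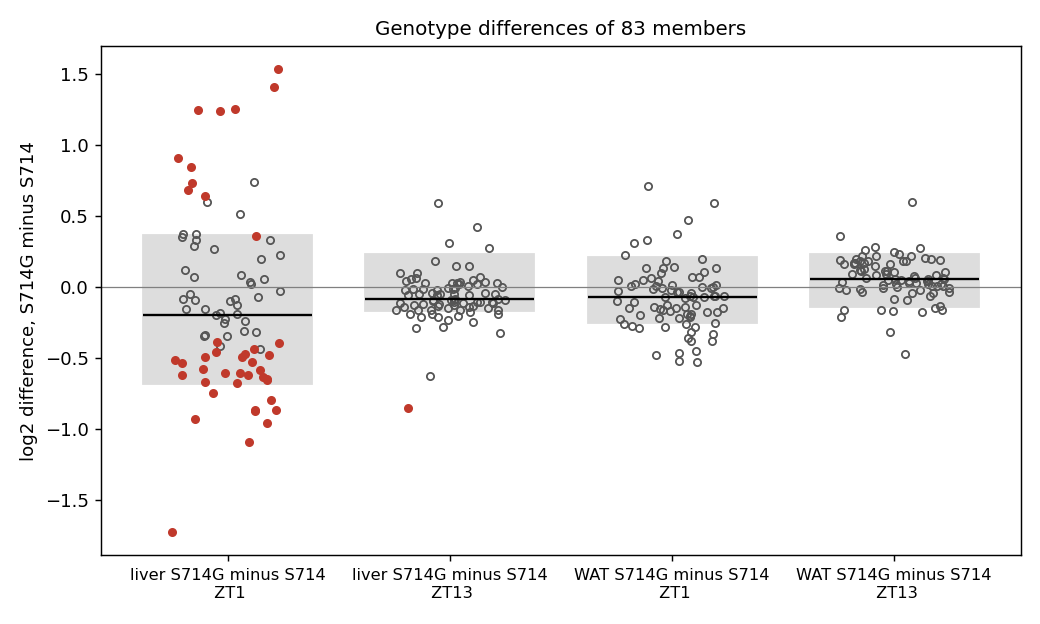
Log2 difference, S714G minus S714, of the 83 tested members in liver and white adipose tissue (WAT) at ZT1 and ZT13. Each circle is a gene, filled red where its adjusted p was under 0.05, the black bar is the members' median and the grey box spans the middle quartiles of all genes tested; only liver at ZT1 holds many called members, and its genotypes lay on different slides.

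In adipose tissue 0 of 83 members passed at ZT1 (0% of 23368 genes, with 0 members at an unadjusted p under 0.05) and 0 at ZT13 (0.0428%, with 1 member at an unadjusted p under 0.05) by limma. At ZT1 no gene passed. The summed signal of 5 clock genes there was 32.1 to 65.5 in S714G and 8.07 to 14.4 in S714. A count of 0 at ZT1 thus does not show that the members were unchanged. The members' median was -0.07 at ZT1 and 0.06 at ZT13, against -0.02 and 0.06 over all genes. At ZT1 the members of lowest p were Ndufa7 (0.47), Atp5f1 (-0.38) and Ndufs5 (0.71), all with adjusted p = 0.74, and at ZT13 Ndufaf4 (0.60), Atp5h (0.36) and Atp5k (0.27). Within slide 1 at ZT1 (2 S714G and 3 S714 arrays), 0 members passed by limma and 1 had an unadjusted p under 0.05. At ZT13 the genotypes lay on different slides. Intervals were wider than in liver, reaching a median of 0.54 to either side of the difference, against 0.40 in liver, and 67 members at ZT1 and 75 at ZT13 had an interval within 2-fold. The genotype effect did not pass a test of difference between liver and adipose tissue for any member at ZT1 (1.40% of genes) or ZT13 (0.202%), with 10 and 1 members at an unadjusted p under 0.05.

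In liver at ZT1, 42 of 83 members differed between genotypes, 11 higher and 31 lower in S714G, against 46.4% of all genes (16.9% higher and 29.5% lower). The median difference was -0.20, against -0.20 over all genes. All 3 S714G arrays were on slide 2 and all 3 S714 arrays on slide 1, so genotype and slide cannot be told apart here. The leading members were Atp5s (1.54), Ndufs5 (1.41) and Ndufs4 (1.26) among the higher, and Cox6a2 (-1.73), Cox5b (-1.09) and Ndufs7 (-0.96) among the lower. With each array centred on its median instead, which moves the median of all genes by over 0.5 to 0.31, the split was 29 higher and 1 lower, with 34.9% of all genes higher and 9.01% lower.

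Adipose S714G at ZT1 is a group with arrays on both of these slides, replicate 3 on slide 2 and the others on slide 1. With 1 array on slide 2, the slide and that sample's own difference cannot be told apart. Ndufs5, an accessory subunit of complex I, was at 3.04 on slide 2, against 1.63 and 1.83 on slide 1. In liver at ZT1 it was at 3.53, 3.53 and 3.17 in S714G (slide 2), against 1.91, 2.09 and 2.01 in S714 (slide 1). Ndufs4, a subunit needed for complex I assembly, was at 3.56 on slide 2, against 1.35 and 1.87 on slide 1 in that adipose group. In the livers it was at 4.22, 4.04 and 4.03 in S714G, against 2.57, 3.24 and 2.71 in S714. Cox5b went the other way, at 4.49 on slide 2 against 5.85 and 5.28 on slide 1 in the adipose group, and at 5.50, 5.23 and 5.30 in S714G against 6.94, 6.00 and 6.39 in S714 in the livers.

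Over the 83 members, the liver ZT1 genotype difference and the difference of replicate 3 from the others in the adipose group had a Pearson correlation of 0.88. They share no array, and genes are not independent, so the value is a description. All 42 members called in liver at ZT1 had the sign of that adipose difference, which largely follows from the correlation. Such sign counts, here and below, have no share over all genes beside them, and their cause was not tested. The arrays of slide 1 also scattered more: the median SD of a member within a group was 0.30 in S714 liver at ZT1 and 0.29 in S714 adipose tissue at ZT1, both wholly on slide 1, against 0.10 to 0.15 in the 5 groups with no slide 1 array. With slide as a fixed or a random block in a fit of 24 arrays, 0 members passed in liver at ZT1. In the fixed block, the adipose group alone joins slides 1 and 2 within a group.

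**Figure D4:**
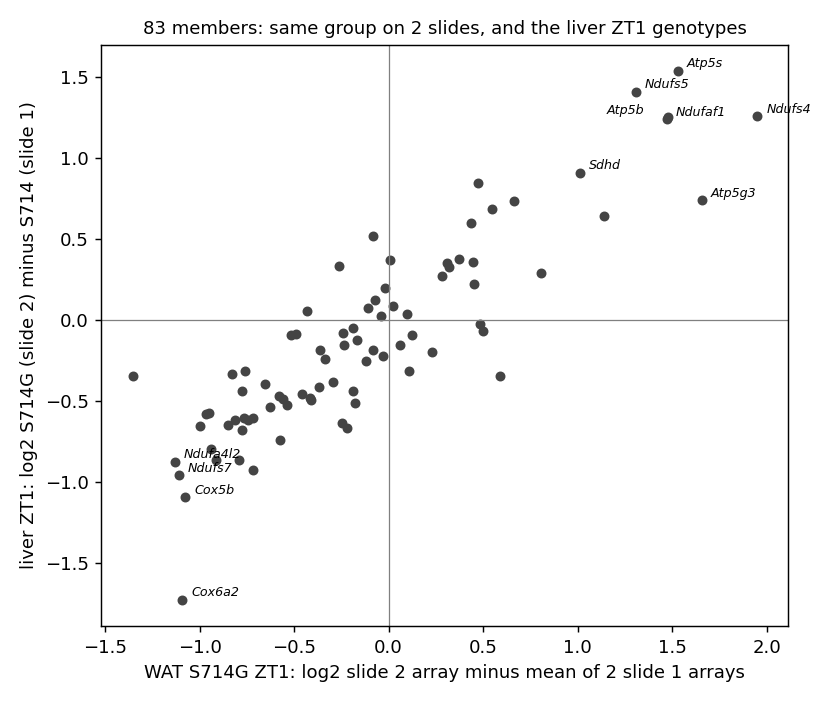
Members' log2 difference between the slide 2 array and the mean of the 2 slide 1 arrays of the same adipose group, S714G at ZT1 (horizontal), against the liver difference at ZT1, S714G on slide 2 minus S714 on slide 1 (vertical). The 83 points run along a rising line, with Ndufs4, Ndufs5 and Atp5s at 1 end and Cox6a2, Cox5b and Ndufs7 at the other.

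Time of day was compared as ZT13 minus ZT1, and no slide held both times of a tissue and genotype. In S714G liver, which used slides 3 and 2, 0 of 83 members passed (2.01% of genes), with 2 at an unadjusted p under 0.05 by limma. The median was 0.09, against 0.03 over all genes, and the lowest p belonged to Uqcrfs1 (0.40), the Rieske protein of complex III, Atp5sl (-0.50) and Atp5c1 (0.28), with adjusted p = 0.22, 0.28 and 0.36. In the same comparison Ppargc1b fell by 1.12 (adjusted p = 0.018), and Ppargc1a, at -0.95, did not pass (adjusted p = 0.059). In S714 liver, with ZT1 on slide 1, 26 members passed, 13 higher and 13 lower (52.2% of genes, 19.6% higher and 32.6% lower), led by Ndufs5 (1.61), Atp5b (1.54) and Ndufs4 (1.44) and by Cox6a2 (-2.33), Cox5b (-0.88) and Ndufs7 (-0.83). This comparison shares its 3 ZT1 arrays with the liver genotype comparison at ZT1. Of these 26, 25 had the sign of the replicate 3 difference within the adipose group, and centring on the array median turned the split to 57 higher and 1 lower, with 45.5% of all genes higher and 10.3% lower.

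In adipose tissue 1 member passed in S714G (Cox6a2 at -1.85, adjusted p = 0.016, 2.05% of genes, 1.66% lower) and 6 in S714 (15.1% of genes, 6% higher and 9.06% lower). Those 6 were Ndufs5 (1.68), Atp5s (1.58) and Ndufaf1 (1.36) above, and Cox6a2 (-1.63), Cox5b (-1.23) and Ndufa13 (-0.89) below, and all 6 had the sign of the replicate 3 difference. The S714 split of higher and lower was 6 and 1 with median centring (15.8% and 2.81% of genes), 4 and 2 after quantile normalization (7.98% and 4.84%) and 3 and 8 with normexp background correction (6.67% and 18.2%). Without replicate 3 of S714G at ZT1, the array on slide 2, the S714G count was 29, with all remaining ZT1 arrays on slide 1. The share of all genes called in that fit is not given, so this count does not show whether the members differed from other genes. The genotype by time interaction gave 11 members in liver, 4 higher and 7 lower (31.9% of genes, 19.8% higher and 12.1% lower), and 0 in adipose tissue (0.107%, 0 members at an unadjusted p under 0.05). In liver the split was 0 and 23 with median centring (5.84% and 26% of genes) and 1 and 7 after quantile normalization (13.6% and 13.3%).

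The median level of the 82 members that were well above background everywhere was compared over arrays. It lay between 4.72 and 5.09 on the 12 liver arrays and reached at most 4.34 on the 12 adipose arrays. Group means in liver were 4.78 ± 0.09 in S714G and 4.92 ± 0.08 in S714 at ZT1, and 4.91 ± 0.17 in S714G and 4.95 ± 0.12 in S714 at ZT13 (SD, n = 3 each). In adipose tissue they were 4.11 ± 0.16 in S714G and 4.20 ± 0.12 in S714 at ZT1, and 4.19 ± 0.11 in S714G and 4.09 ± 0.08 in S714 at ZT13. The 2 genotypes overlapped at both times in both tissues. After quantile normalization the liver arrays lay at 14.5 to 14.7 and the adipose arrays at 14.2 to 14.7, and the tissues overlapped.

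**Figure D5:**
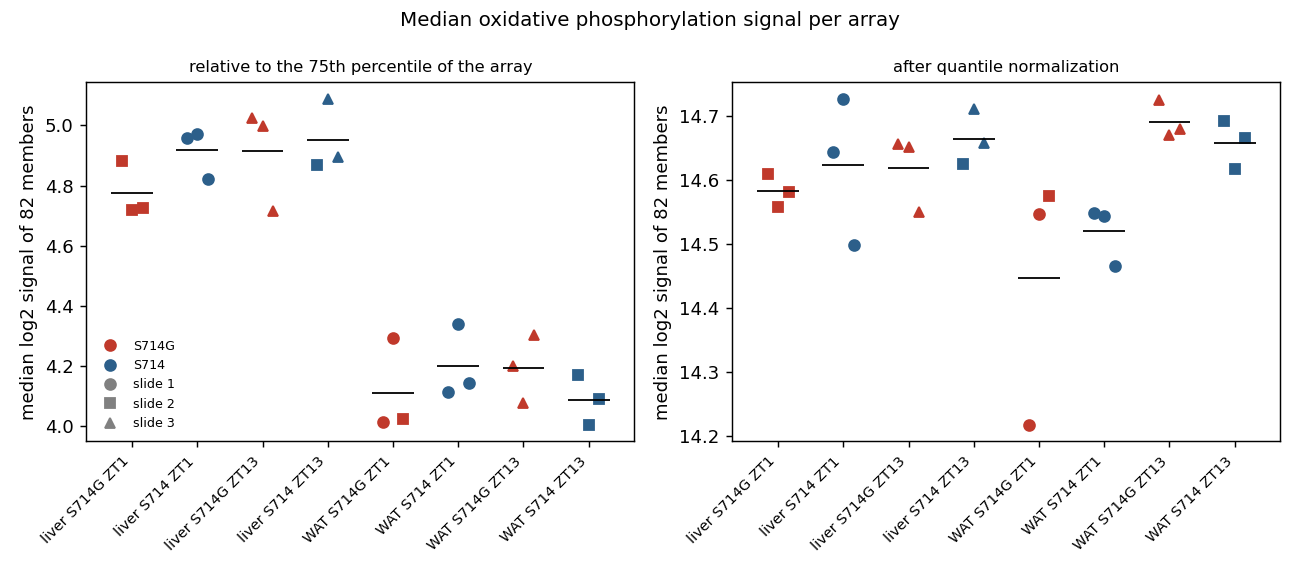
Median log2 signal of the 82 members on each array by group, relative to the array's 75th percentile (left) and after quantile normalization (right), with colours for genotype, shapes for slide and bars for group means (WAT is white adipose tissue). The tissues separate on the left panel and overlap on the right panel, and genotypes overlap within the tissues.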

How the data were processed

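Total RNA from liver and white adipose tissue was labelled with Cy3 and hybridised to 24 arrays on 3 slides of 8. The arrays were read with Agilent Feature Extraction 10.7.3.1, per the file headers. The deposited intensity of a spot is its processed signal, background-subtracted by that software, and the deposited flags for spots well above background, outlier and saturated come from it too, per the file headers. The authors also deposited a matrix of log2 values. It equals the log2 processed signal minus 1 constant per array, and its column medians run from -3.92 to -3.03. The authors' reason for that centring is not given in the sources used here, and the matrix was used as an alternative.

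Outlier-flagged and control spots were left out, spots of a probe were averaged, and log2 signals were set relative to the array's 75th percentile (405 to 2015 in signal units). The share of spots well above background was 45.5% to 71.2% per array, and 3 arrays per group limit the precision. Differences were fitted with limma 3.58.1 in R 4.3.3, with 4 group means per tissue or 8 for tissue comparisons, and p-values were adjusted by the Benjamini-Hochberg method over all genes tested (threshold 0.05). The steps were tested on simulated data. Intervals are 95% from the same fit. Of the members, 82 matched RefSeq by accession. The members, gene lists and tests were chosen with earlier results of these data known. Named genes were 16 subunits over the 5 complexes, the isoform sets, the Ndufaf factors and, in each comparison, the 3 members per direction of largest difference past the threshold, or the 3 of lowest p where none passed. Genes printed from the other lists, and further members, were picked after their values were seen. One of these subunits is not reported here. Alternatives were background correction, scaling, filter, slide and replicate blocks, and leaving out arrays.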

Additional observations from a re-analysis of the deposited data

Results flagged for a closer look

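In liver, 11 members differed between genotypes in their time difference (interaction, S714G minus S714, of ZT13 minus ZT1, log2). Higher were Cox6a2 (2.32), Ndufs7 (0.91), Atp5a1 (0.89) and Ndufb7 (0.56). Lower were Ndufs5 (-1.38), Ndufaf1 (-1.28), Ndufs4 (-1.20), Sdhd (-1.10), Ndufs1 (-1.02), Ndufaf4 (-1.003) and Ndufb3 (-0.97). S714 liver at ZT1 was the liver group on slide 1, and 0 of these passed with slide as a block. In the fixed block, the slide 1 to slide 2 difference rests on 1 slide 2 array of the S714G adipose group at ZT1. This loss of calls thus cannot tell slide from genotype. Ppargc1b differed between tissues in its genotype effect at ZT13 (-1.71, liver minus adipose). It passed in 3 of 22 alternative settings, over which the difference ran from -1.81 to -1.43, and the adipose genotypes lay on different slides.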

How the results depend on the processing

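The counts of members called are given by setting, without the share of all genes called in that setting and with the cause not tested. By themselves these counts do not show whether the members differed from other genes. With slide as a fixed or random block, 0 passed in liver at ZT1, liver at ZT13, S714 liver over time, the liver interaction and either adipose time comparison. With all 24 arrays in the fit, counts were 27 in liver at ZT1, 0 in liver at ZT13, 15 in S714 liver over time, 5 in the liver interaction, and 11 in S714G and 23 in S714 adipose tissue over time. Without the filter on dim probes they were 26, 0, 17 and 5 in the same liver comparisons and 3 in S714 adipose tissue over time. Median centring gave 58 in S714 liver over time and 23 in the liver interaction. Normexp gave 19 in the liver interaction, and 0 in S714G and 11 in S714 adipose tissue over time. Quantile normalization gave 37 for tissue and 0 in liver at ZT13. Subunits without assembly factors gave 0 in liver at ZT13, slide 3 alone gave 2, and slide 1 alone gave 30 for tissue. Without the 3 arrays of another title prefix, counts were 26 in S714G and 11 in S714 adipose tissue over time and 33 for the ZT1 genotype effect between tissues.

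Same-numbered replicates did not correlate above 0.1 in every pair of any comparison, and the main fits treat the arrays as unpaired. With 3 arrays per group and slides unbalanced, these correlations cannot exclude that equal numbers name the same animal. The replicate block gave 2 in S714 adipose tissue over time and 0 in liver at ZT13, where Atp5sl no longer passed. Leaving out 1 array at a time gave 22 to 46 in liver at ZT1, 0 to 0 in liver at ZT13, 15 to 39 in S714 liver over time, 0 to 0 in S714G liver over time, 6 to 31 in the liver interaction, 0 to 29 in S714G and 0 to 7 in S714 adipose tissue over time, and 79 to 81 for tissue. It gave 0 to 0 for both adipose genotype comparisons and the adipose interaction, and 0 to 24 at ZT1 and 0 to 0 at ZT13 for the genotype effect between tissues. The 24 and the 29 came without replicate 3 of S714G adipose tissue at ZT1, the array on slide 2.

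The slide as a fixed block reversed Ndufs4 (-0.69 in liver at ZT1, -0.46 in S714 liver over time, 0.78 in the interaction), Ndufs7 (0.15, 0.32 and -0.17), Ndufaf1 (0.20 in the liver interaction, -0.11 in S714 adipose tissue over time), and Atp5b (-0.048) and Cox5b (0.074) in S714 liver over time. The slide 1 to slide 2 difference of that block rests on 1 slide 2 array of S714G adipose tissue at ZT1. These reversals thus do not show the direction of a genotype or time difference. Both adipose genotype counts and S714G liver over time stayed at 0 in the alternatives run.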
